A study of Mus musculus with 42 samples.

Results

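The genes described are 7 regulators of the pluripotent state of mouse embryonic stem cells: Pou5f1, Sox2, Utf1, Sall4, Lin28a, Lin28b and Trim71. They are a list of named genes, set up with earlier results of these data known, and no measured value enters the rule. They were found on the arrays through the RefSeq accession of each probe. All 7 were measured, out of 22278 genes with a RefSeq probe, and each is given by its brightest probe over the 42 arrays. The study followed dual reporter mouse embryonic stem cells (mESCs), a single B6 line that carries GFP at Gsc, a gene of the anterior primitive streak, and RedStar at Hhex, a gene of anterior definitive endoderm (ADE), while they were driven towards ADE. There were 3 arrays from independent experiments for each of 14 groups. The untreated series held mESCs kept in ESC medium with LIF (ESC), an unsorted population at day 2 of differentiation (d2), Gsc-GFP negative and positive cells sorted at day 3 and day 4 (d3 G-, d3 G+, d4 G-, d4 G+), negative, low and high cells at day 5 (d5 G-, d5 Glow, d5 Ghigh), and Gsc-GFP high cells without or with Hhex-RedStar at day 6 (d6 G+H-, d6 G+H+). The EPZ6438 series held cultures at day 6 that had received the solvent DMSO alone (Control), 2.5 µM EPZ6438 throughout differentiation (ADE_EPZ), or 2.5 µM EPZ6438 as mESCs followed by differentiation in DMSO (ES_EPZ). EPZ6438 inhibits EZH2, the enzyme of the polycomb repressive complex PRC2 that places H3K27me3, a histone mark of repressed genes. No sort is named in the labels of the EPZ6438 series, and the 2 series share no slide. Control cultures are therefore set against no sorted d6 population, because series and sort cannot be told apart there.

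Pou5f1 (Oct4) and Sox2 bind DNA as partners at composite sites and keep naive and primed pluripotent cells undifferentiated, while Utf1 is a chromatin protein encoded by one of their direct targets. Sall4 is a zinc finger transcription factor that works with the NuRD deacetylase complex in pluripotent cells and also in endoderm and germ cells. Lin28a and Lin28b are RNA-binding proteins that block maturation of the let-7 microRNA family, Trim71 (Lin41) is an RNA-binding protein that let-7 represses, and all of these persist in early embryonic cells beyond the naive state.

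Pou5f1, Sox2 and Utf1 were the genes called lower than ESC in the data below, each from a different population on. Their promoters are therefore shown first. Each runs from 250 bases before to 50 bases after the transcription start in RefSeq on GRCm38.p6, 5′ to 3′ on the gene's strand, which is the plus strand for all 3 genes. Capitals mark the GC box GGGCGG, on either strand, where Utf1 holds 2 of its 4 boxes in an overlapping run. Promoters were found for 6 of the 7 genes, all but Sall4.
Pou5f1, chr17:35505782-35506081: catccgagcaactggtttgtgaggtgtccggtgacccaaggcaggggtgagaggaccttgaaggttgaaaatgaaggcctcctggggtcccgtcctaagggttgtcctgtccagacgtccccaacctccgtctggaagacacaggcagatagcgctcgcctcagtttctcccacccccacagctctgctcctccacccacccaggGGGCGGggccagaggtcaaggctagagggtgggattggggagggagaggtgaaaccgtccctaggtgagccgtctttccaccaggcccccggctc
Sox2, chr3:34649745-34650044: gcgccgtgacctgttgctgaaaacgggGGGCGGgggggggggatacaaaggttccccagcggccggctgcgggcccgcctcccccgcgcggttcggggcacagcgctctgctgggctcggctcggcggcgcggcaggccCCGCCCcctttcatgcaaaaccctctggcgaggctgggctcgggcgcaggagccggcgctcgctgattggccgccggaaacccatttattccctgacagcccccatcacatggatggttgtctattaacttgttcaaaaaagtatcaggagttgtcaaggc
Utf1, chr7:139943606-139943905: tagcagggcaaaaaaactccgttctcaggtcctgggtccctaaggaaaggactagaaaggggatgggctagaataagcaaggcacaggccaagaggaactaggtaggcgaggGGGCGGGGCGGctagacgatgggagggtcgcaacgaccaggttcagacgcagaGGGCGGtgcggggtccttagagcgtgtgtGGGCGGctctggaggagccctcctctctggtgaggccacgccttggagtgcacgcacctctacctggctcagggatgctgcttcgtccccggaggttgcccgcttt

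The GC box stood in 35.7% of the 32851 RefSeq promoters of this length. It was found at position -45 from the start in Pou5f1, at -223 and -111 in Sox2, and at -138, -133, -85 and -56 in Utf1. These windows held 11, 27 and 17 CpG dinucleotides, against a median of 7 over all promoters. Of the other genes, Trim71 held 19 CpG and 1 GC box at -12, Lin28a 10 CpG and 1 GC box at 32, and Lin28b 8 CpG and no GC box. The octamer ATGCAAAT, the letters that Pou5f1 and related factors read, was searched on both strands and was in none of these windows and in 1.74% of all promoters. The Sox motif ACAATG, in 12.6% of all promoters, was at -96 in Lin28a and in a second, downstream start window of Pou5f1 at -158. These are matches of letters only, and nothing in the arrays measured binding.

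The arrays covered the pluripotent and the differentiated ends of the course by their markers. The mean log2 intensity of the 10 naive pluripotency markers was 12.64 in ESC and 8.07 in d6 G+H+, and that of the 6 definitive endoderm markers was 5.74 in ESC, where 3 of the 6 were not above background, and 12.98 in d6 G+H+. Between 24454 and 40392 of the 55681 probes were well above background on an array. The chosen probe of 6 genes was above background on all 42 arrays, and that of Sox2 on 40. Throughout, a gene is said to have risen or fallen where limma gave an adjusted p of at most 0.01 and a log2 difference of at least 1.5. Whether the arrays of groups overlapped is given as a description and not as a test. The share of all genes whose groups did not overlap was not counted. Values are log2 intensities with the SD (n = 3), and since a probe's brightness depends on its own sequence, levels are compared between groups and never between genes. In bulk RNA, fewer cells that express a gene and less RNA per cell cannot be told apart.

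**Figure D1:**
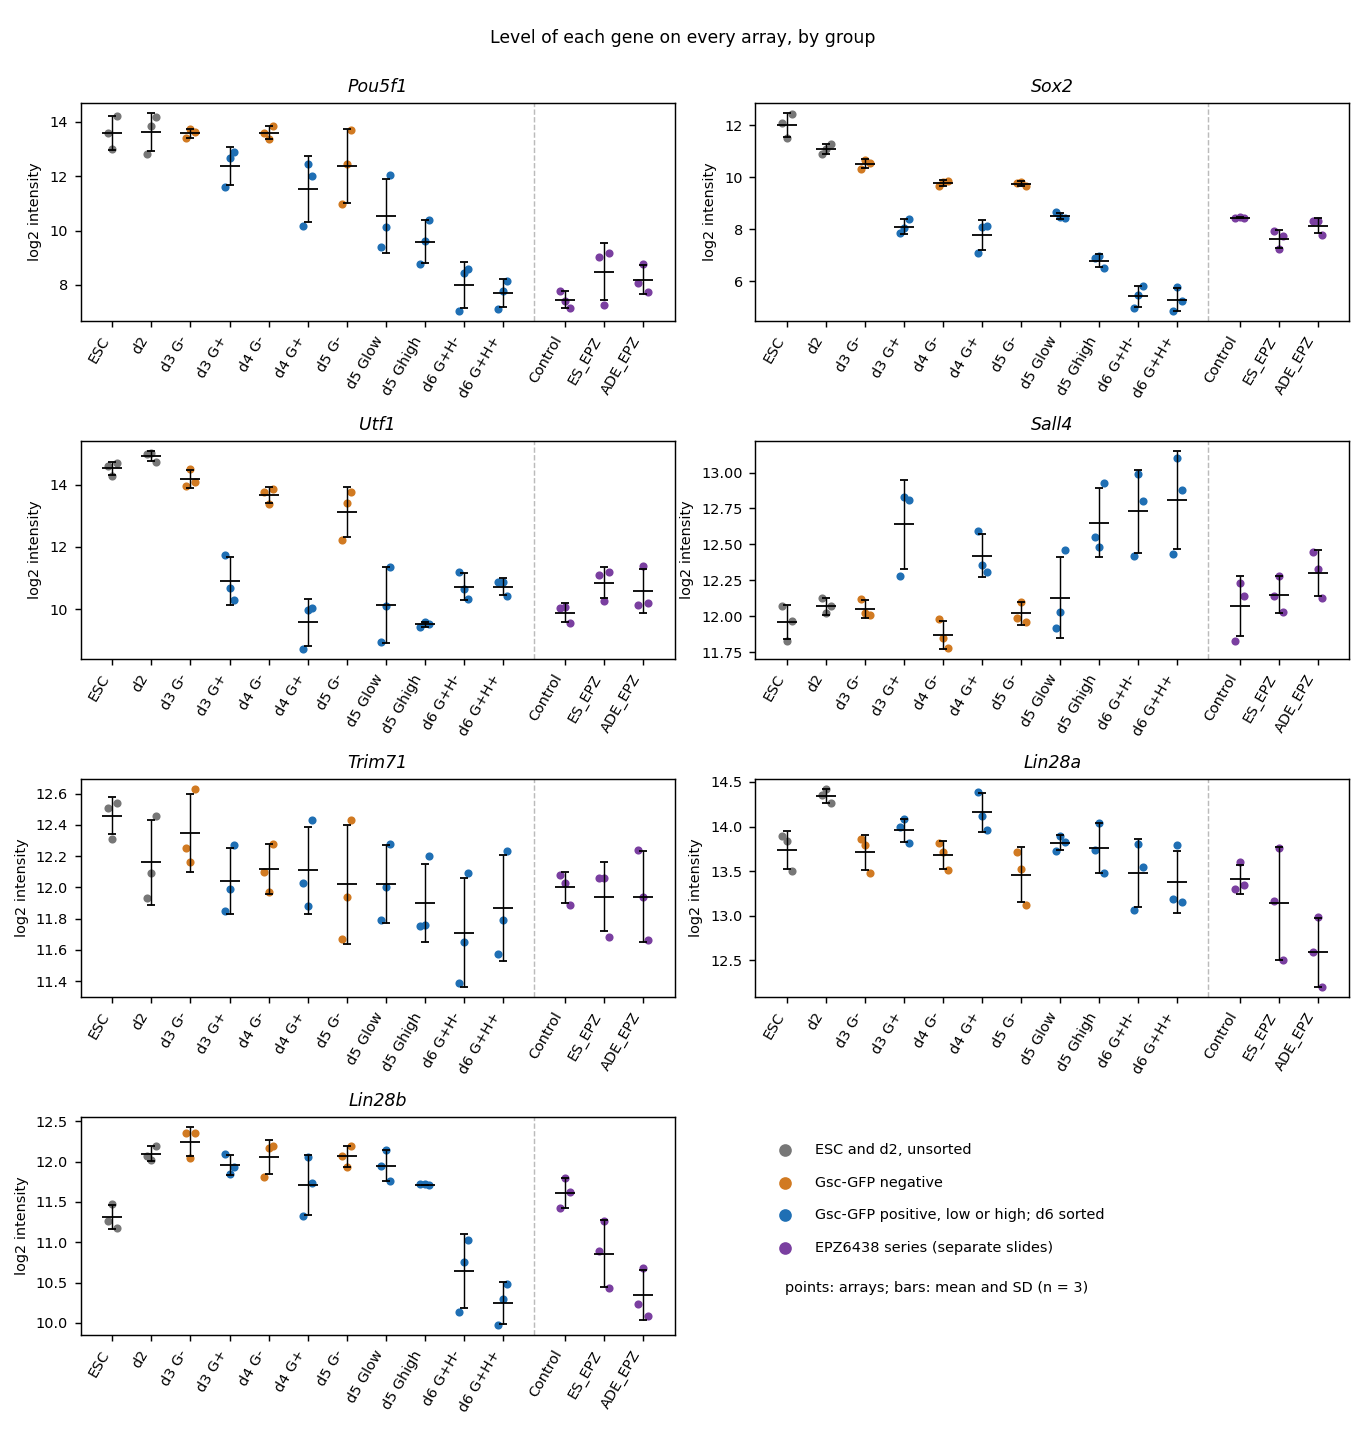
Log2 intensity of the 7 genes on every array (points), with the mean and SD of each group of 3 (bars), for the 11 untreated groups left of the dashed line and the 3 groups of the EPZ6438 series right of it. Pou5f1, Sox2 and Utf1 span 5.93, 6.73 and 5.41 log2 units between their highest and lowest untreated groups, and the other genes at most 1.99.

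Of the 7 genes, 3 fell below ESC along the route to ADE, and 4 were not called lower than ESC in any population. In d6 G+H+ cells Sox2 had fallen 106-fold, Pou5f1 60-fold and Utf1 14-fold below ESC, and no member was called higher in any population. The Sox2 value depended on the scaling and background correction at its dim d6 level, with log2 differences between -8.06 and -5.72 over the alternatives. The group means of Sall4, Lin28a, Lin28b and Trim71 spanned 0.93, 0.96, 1.99 and 0.75 log2 units over the 11 untreated groups. The Lin28b span ran from 12.25 in d3 G- down to 10.25 in d6 G+H+, and that contrast was not tested. The median difference of the 7 genes from ESC was -1.06 in d6 G+H+, beside a median of 0 over all genes.

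Sox2 was the first to be called lower. Its 3 arrays read 12.1, 11.53 and 12.44 in ESC, 10.91, 11.11 and 11.27 at d2, and 10.32, 10.66 and 10.57 in d3 G- cells. The groups did not overlap at either step. The difference of d2 from ESC was -0.92 (SE 0.25, adjusted p = 0.0171) and did not pass the threshold, whereas that of d3 G- was -1.5 (SE 0.25, adjusted p = 6.48e-05) and passed it narrowly. That narrow call was lost with a 75th percentile scaling, where the fit held only the 2 groups, without background correction, with a background offset of 50, and when d3 G- replicate 1, ESC replicate 1 or ESC replicate 3 was left out.

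Sox2 fell in Gsc positive cells as well. The arrays read 7.84, 8.05 and 8.41 in d3 G+ and 7.1, 8.09 and 8.11 in d4 G+, all below every d3 G- and d4 G- array. Sox2 was 8.51 ± 0.12 in d5 Glow and then 6.88, 6.97 and 6.49 in d5 Ghigh. At d6 it reached 4.97, 5.45 and 5.81 in G+H- and 4.86, 5.76 and 5.25 in G+H+, where 2 of the 3 arrays of each group were above background. The differences from ESC were -3.92 in d3 G+ (adjusted p = 5.6e-14), -5.24 in d5 Ghigh (adjusted p = 3.36e-17) and -6.73 in d6 G+H+ (adjusted p = 6.74e-20). In Gsc negative cells Sox2 was 9.78 ± 0.1 at d4 and 9.76 ± 0.09 at d5, with differences from ESC of -2.24 and -2.26 (adjusted p = 3.88e-08 and 2.34e-08).

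Utf1 fell in the Gsc positive cells, and in the negative cells it was not called different from ESC on any day. It read 14.59, 14.29 and 14.71 in ESC, 14.99, 15.03 and 14.73 at d2, and 13.95, 14.51 and 14.08 in d3 G-. The differences of d4 G- and d5 G- from ESC were -0.86 (adjusted p = 0.298) and -1.4 (adjusted p = 0.0295). In d3 G+ cells the arrays read 11.75, 10.67 and 10.29, which put all 3 below every earlier array. The difference was -3.63, or 12.3-fold, from ESC (SE 0.44, adjusted p = 8.48e-08) and -4.01 from d2 (adjusted p = 1.67e-08).

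The lowest Utf1 levels were those of d4 G+, at 8.71, 9.97 and 10.03, and of d5 Ghigh, at 9.44, 9.57 and 9.51. The differences from ESC were -4.96 and -5.02 (adjusted p = 9.85e-11 and 6.28e-11). Both d6 populations averaged 10.72, with arrays between 10.32 and 11.19, above all 3 d5 Ghigh arrays. The step from d5 Ghigh to d6 G+H- was 1.21 (SE 0.44, adjusted p = 0.104, higher in 9 of 9 pairs of arrays) and was not called.

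Pou5f1 was the last of the 3 to be called lower, and its SD within a group reached 1.36. The arrays read 13.58, 12.98 and 14.22 in ESC, 12.83, 13.85 and 14.17 at d2, and 13.4, 13.73 and 13.61 in d3 G-. These groups overlapped, as did d4 G- at 13.6 ± 0.23. Gsc positive cells then gave 11.6, 12.65 and 12.89 at d3, 10.17, 12.46 and 11.99 at d4, and 8.78, 9.6 and 10.38 in d5 Ghigh. At d6 the arrays read 7.03, 8.43 and 8.58 in G+H- and 7.12, 7.79 and 8.16 in G+H+.

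Against ESC, Pou5f1 was first called lower at day 5, with differences of -3.07 in d5 Glow (SE 0.63, adjusted p = 0.00038), -4.01 in d5 Ghigh (adjusted p = 7.86e-06), -5.58 in d6 G+H- (adjusted p = 1.24e-08) and -5.91 in d6 G+H+ (adjusted p = 3.26e-09). The d4 G+ difference was -2.05 with no overlap (adjusted p = 0.0187), and it passed with the slide as a fixed block (adjusted p = 0.00565) or a random one (adjusted p = 0.00459) and without d4 G+ replicate 2. The d5 Glow call was lost with only the compared groups in the fit (adjusted p = 0.0143). Within single slides, the difference of d5 Ghigh from ESC was -3.97, -4.21 and -3.84. The gene whose levels followed Pou5f1 most closely was Pou5f1-rs4, by name a related sequence (Pearson r = 0.999 over 11 group means), and the probes of the 2 may not be separable.

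**Figure D2:**
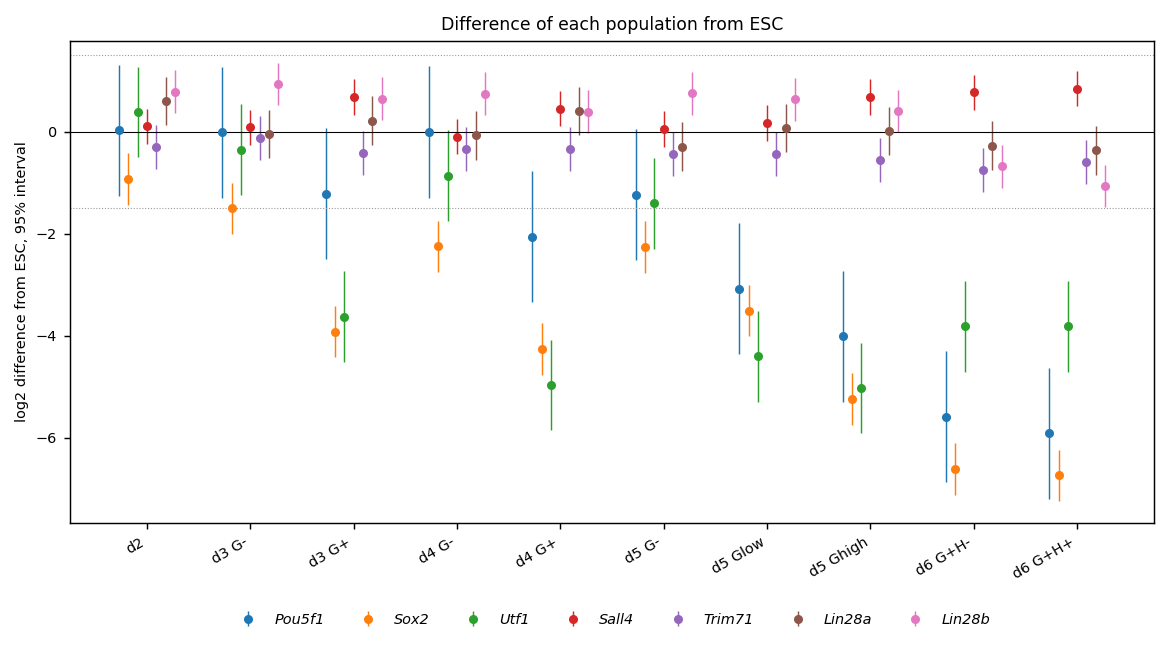
Log2 difference of each of the 10 differentiating populations from ESC for the 7 genes (points, with 95% intervals from limma). Dotted lines mark the fold threshold of 1.5 in either direction. Sox2 crosses it in d3 G- cells, Utf1 in d3 G+ and Pou5f1 in d4 G+, where its adjusted p did not pass, while the other 4 genes stay between the lines throughout.

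Counted by population, Sox2 alone of the 7 genes was called lower than ESC in d3 G-, d4 G- and d5 G-, where 1.25%, 1.69% and 2.13% of all genes were called lower. Sox2 and Utf1 were called lower in d3 G+ and d4 G+, beside 3.58% and 4.23% of all genes. Pou5f1, Sox2 and Utf1 were called lower in d5 Glow, d5 Ghigh, d6 G+H- and d6 G+H+, beside 4.1%, 4.4%, 4.94% and 5.16%. None was called at d2, where 1.3% of genes were lower. In the other direction, in which no member was called, the shares of all genes called in the order of the groups above from d2 to d6 G+H+ were 0.341%, 1.07%, 2.78%, 1.42%, 2.91%, 2.06%, 3.38%, 3.5%, 4.89% and 5.58%.

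By its brightest probe, the transcription factor gene Sall4 was higher than ESC by a small amount in 4 of the 6 Gsc positive populations at the p threshold. It read 12.07, 11.83 and 11.97 in ESC, 12.28, 12.83 and 12.81 in d3 G+, 12.55, 12.48 and 12.93 in d5 Ghigh, and 12.43, 13.1 and 12.88 in d6 G+H+. Every array of these 3 positive populations was above every ESC array. The differences from ESC were 0.68 (SE 0.17, adjusted p = 0.00345), 0.69 (adjusted p = 0.00267) and 0.85 (adjusted p = 0.000184), or 1.8-fold at d6, so that the p threshold was passed and the fold threshold was not. Of all genes, 9.68%, 11% and 14.8% passed the p threshold in that direction in these 3 populations. In d3 G-, d4 G- and d5 G- cells Sall4 averaged 12.05, 11.87 and 12.02, within 0.1 log2 units of ESC. The d6 G+H- difference was 0.78 (adjusted p = 0.000612), at a threshold passed by 13.8% of genes. The other Gsc positive populations did not pass, with 0.46 in d4 G+ (adjusted p = 0.0598, no overlap) and 0.18 in d5 Glow (adjusted p = 0.654, higher in 6 of 9 pairs). The 2 dimmer Sall4 probes were higher in d6 G+H+ by 0.47 (adjusted p = 0.023) and 0.75 (adjusted p = 0.00223). None of the 12 NuRD subunits listed as Sall4 partners was called in any comparison, with a median of -0.24 in d6 G+H+ against ESC.

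Of the RNA-binding regulators, Lin28a was almost level through differentiation. Its group means ran from 14.34 ± 0.08 at d2 to 13.38 ± 0.35 in d6 G+H+, and the 3 ESC arrays read 13.89, 13.84 and 13.5. No untreated population was called different from ESC, and the d2 difference of 0.6 had an adjusted p of 0.145. Neighbouring groups overlapped all along the order of its levels.

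Lin28b was higher than ESC early in differentiation and lower at d6, by amounts short of the fold threshold. Its arrays read 11.27, 11.48 and 11.18 in ESC, 12.35, 12.04 and 12.35 in d3 G-, and 11.72, 11.72 and 11.71 in d5 Ghigh. At d6 they read 10.13, 10.76 and 11.03 in G+H- and 9.97, 10.3 and 10.48 in G+H+, all below the ESC arrays. The difference from ESC was 0.94 in d3 G- (SE 0.21, adjusted p = 0.00203, a threshold that 4.45% of all genes passed in that direction) and -1.06 in d6 G+H+ (adjusted p = 0.000111, passed by 14.5%). The step from d5 Ghigh to d6 G+H- was -1.07 (adjusted p = 0.000713), where 2.95% of genes passed the p threshold in that direction. Over the alternatives the adjusted p of this step reached 0.0897. A dimmer Lin28b probe gave -1.05 in d6 G+H+ (adjusted p = 0.000495) and 0.7 in d3 G- (adjusted p = 0.0525). For the step from d5 Ghigh to d6 G+H- the dimmer probe gave -0.66 (adjusted p = 0.0869).

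Trim71 was highest in ESC, at 12.51, 12.31 and 12.54, and lowest in d6 G+H-, at 11.39, 11.65 and 12.09. The difference was -0.75 (SE 0.21, adjusted p = 0.00724, a p threshold that 13.6% of genes passed in that direction), and that of d6 G+H+ was -0.59 (adjusted p = 0.0367). Its dimmer probe gave -0.87 and -0.77 (adjusted p = 0.000207 and 0.00078). None of these reached the fold threshold.

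Sorting by the Gsc reporter on a single day separated Sox2 and Utf1 on all 3 days, and Pou5f1 on 1. At d3, where 1.07% of all genes were called lower in G+ cells, the difference between G+ and G- was -2.42 for Sox2 (SE 0.25, adjusted p = 4.03e-08) and -3.28 for Utf1 (SE 0.44, adjusted p = 4.25e-06). At d4, with 1.41% of genes called lower, it was -2.01 (adjusted p = 1.7e-06) and -4.1 (adjusted p = 1.61e-07). At d5, with 1.11% called lower, the mean of Glow and Ghigh differed from G- by -2.11 for Sox2 (adjusted p = 6.24e-08) and -3.31 for Utf1 (adjusted p = 5.3e-07), and the Utf1 call was lost with only the compared groups (adjusted p = 0.0114). For both genes every positive array was below every negative array of its day. Within single slides the Utf1 difference was -3.84 and -3.79 at d3 and -3.79 and -4.68 at d4, and that of Sox2 was -2.6 and -2.17 at d3 and -1.58 and -2.72 at d4.

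The Pou5f1 difference was -1.2 at d3 (SE 0.63, adjusted p = 0.472) and -2.06 at d4 (adjusted p = 0.0543), and neither was called although the groups did not overlap. At d5 it was -2.31 (SE 0.55, adjusted p = 0.00804, lower in 17 of 18 pairs). The d5 groups overlapped, since G- cells read 10.96, 12.45 and 13.68 and Glow cells 9.41, 10.14 and 12.04. This call was lost with a 75th percentile scaling (adjusted p = 0.0249), with the untreated series alone (adjusted p = 0.0148), with only the compared groups (adjusted p = 0.188) and in 6 of 9 fits that left out 1 array, with adjusted p between 0.000948 and 0.165.

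Whether the separation grew between days was tested directly, and no member passed, where 0% of all genes were called between d3 and d4 and 0.211% between d3 and d5. The d5 difference minus the d3 difference was -1.11 for Pou5f1 (95% interval -2.81 to 0.6), 0.3 for Sox2 (-0.36 to 0.97) and -0.04 for Utf1 (-1.22 to 1.14). None of the other 4 genes was called on any day. Sall4 was higher in G+ cells by 0.59 at d3 (adjusted p = 0.039) and 0.55 at d4 (adjusted p = 0.059), in 9 of 9 pairs each, and by 0.37 at d5 (adjusted p = 0.197), in 14 of 18 pairs with groups that overlapped. Lin28a differed by 0.25 to 0.48, Lin28b by -0.35 to -0.23 and Trim71 by -0.31 to 0.

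**Figure D3:**
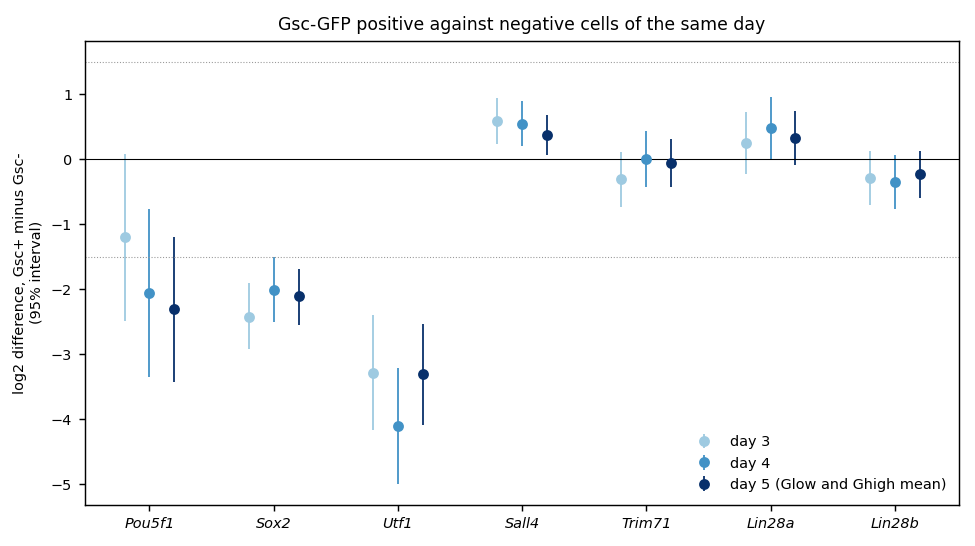
Log2 difference between Gsc positive and Gsc negative cells sorted on day 3, day 4 and day 5 for the 7 genes (points, with 95% intervals from limma; at day 5 the positive value is the mean of Glow and Ghigh). Sox2 and Utf1 lie below the dotted fold threshold of -1.5 on all 3 days, and the intervals of the other genes except Pou5f1 stay within 1 log2 unit of 0.

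Steps between consecutive populations showed where the losses fell. From d2 to d3 G+, where 2.68% of genes were called lower, Sox2 differed by -2.99 (adjusted p = 5.24e-11) and Utf1 by -4.01. No member was called from d2 to d3 G- (1.26% of genes in either direction) or from d3 G- to d5 G- (0.835%). From d3 G+ to d4 G+, a step at which 0.0359% of all genes were called in either direction, no member was called. From d4 G+ to d5 Ghigh, with 1.09% called in either direction, none was called, and Pou5f1 was at -1.95 (adjusted p = 0.0836). Within d5, the Sox2 difference of Ghigh from Glow was -1.73 (adjusted p = 0.000129), 1 of 5 genes called lower (0.0224%), and the call was lost with a 75th percentile scaling, a background offset of 50 or only the compared groups. From d5 Ghigh to d6 G+H-, with 2.1% called in either direction, the Sox2 difference was -1.37 (adjusted p = 0.000372), under the fold threshold. With a 75th percentile scaling, or without d5 Ghigh replicate 3 or d6 G+H- replicate 3, 1 member was called at this step. Within d6, where 0% of genes were called, no member differed between G+H- and G+H+ by more than 0.39.

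Genes that Pou5f1 and Sox2 are known to bind or work with were followed as a list of 16. Nanog, Zfp42 and Nr0b1 are also among the naive markers, so the 2 lists are not separate. Against ESC, 4 were called lower at d2, 5 in d3 G-, 8 in d3 G+ and, at the end of the course, 9 in d6 G+H+. Of all genes, 1.3%, 1.25%, 3.58% and 5.16% were called lower in these comparisons. Their median was -1.51 in d3 G+, beside 0.03 over all genes, and -2.6 in d6 G+H+, beside 0. In d3 G+ cells the largest falls were those of Nr0b1, a nuclear receptor of naive cells (-6.96, adjusted p = 4.38e-10), Zfp42 (Rex1, -4.81, adjusted p = 6.22e-13), Spp1, a secreted phosphoprotein (-4.66, adjusted p = 3.56e-09), and Fbxo15 (-4.53, adjusted p = 7.42e-12). In d6 G+H+ the growth factor gene Fgf4 was not above background and at least 288-fold below ESC (adjusted p = 1.57e-16), followed by Fbxo15 (-7.78, adjusted p = 5.71e-18), Dppa4 (-6.53, adjusted p = 1.24e-18) and Dppa5a (-5.73, adjusted p = 5.96e-13). Nanog, a homeodomain partner of the core network, was at -1.63 in d3 G+ (adjusted p = 0.000952), and its difference reached -5.18 in d6 G+H+ (adjusted p = 1.85e-13). The 2 genes called higher in d6 G+H+ were the Nodal antagonists Lefty1 (3.27, adjusted p = 0.000127) and Lefty2 (3.14, adjusted p = 5.25e-05).

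Between G+ and G- cells of a day, 3 of these 16 were called lower at d3, 5 at d4 and 6 at d5, and none higher. Of all genes, 1.07%, 1.41% and 1.11% were called lower. Dppa4, a gene for a chromatin protein of pluripotent cells, was among them each day, at -2.62, -2.65 and -2.52 (adjusted p = 5.52e-08, 9.3e-08 and 1.5e-08), as was Fbxo15 at -1.95, -2.27 and -2.52 (adjusted p = 0.000391, 5.84e-05 and 1.19e-06). The d3 count was between 2 and 5 over the alternatives, those of d4 and d5 were not recomputed, and no order of the days is read from them. In d3 G+ against d3 G- cells, where 1.07% of all genes were called lower and 0.673% higher, 5 of 10 naive markers were called lower (3 to 6 over the alternatives) and 1, Tbx3, higher. Esrrb, among the 5, kept its call in 3 of 6 fits that left out 1 array. In the same comparison 4 of 5 primitive streak markers were higher, among them Gsc, on which the cells were sorted. The mean of the naive markers was 9.66 in d3 G- (arrays 9.15 to 10.02) and 8.3 in d3 G+ (7.95 to 8.61). In both groups all 10 were above background on at least 1 array. The part of these shifts in the Pou5f1, Sox2 and Utf1 differences was not tested.

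The Lin28 and let-7 list held 23 genes for microRNA processing, uridylation of let-7 precursors and let-7 targets. Against ESC, 4 were called higher in d3 G+ and none lower, where 2.78% of all genes were called higher and 3.58% lower, and the median was 0.51, beside 0.03 over all genes. These were the chromatin protein gene Hmga2 (2.74, adjusted p = 3.91e-06), the cyclin gene Ccnd2 (2.7, adjusted p = 3.38e-05), Arid3b (2.38, adjusted p = 5.17e-12) and the RNA-binding protein gene Igf2bp3 (1.65, adjusted p = 3.04e-08), all known let-7 targets. In d6 G+H+, with 5.58% of all genes higher and 5.16% lower, 2 were higher (Arid3b and Igf2bp3) and 2 lower, Ccnd1 (-3.54, adjusted p = 5.03e-11) and Tut4 (-2.06, adjusted p = 3.75e-06), the uridylyl transferase that Lin28a recruits to let-7 precursors. From d5 Ghigh to d6 G+H- the Lin28b difference was -1.07 by its brightest probe and -0.66 by the dimmer one (adjusted p = 0.0869). At this step, where 2.1% of all genes were called in either direction, 4 of the list were lower. These were Ccnd2 (-2.03, adjusted p = 0.00426), Tut4 (-1.96, adjusted p = 0.000105), Ccnd1 (-1.69, adjusted p = 0.000518) and Hmga2 (-1.67, adjusted p = 0.00798). That count was between 0 and 4 over the alternatives and between 1 and 4 with 1 array left out. No let-7 microRNA is measured on these arrays.

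Relatives of the regulators were measured for 16 of 17 genes listed. In d6 G+H+, where 5.58% of all genes were called higher and 5.16% lower, 3 were higher than ESC, Sox3, a neural and epiblast relative of Sox2 (2.72, adjusted p = 5.73e-12), Sox4 (2.48, adjusted p = 3.02e-08) and Trim32 (1.9, adjusted p = 1.49e-12). Another 3 were lower, the epiblast POU factor gene Pou3f1 (-4.38, adjusted p = 4.22e-10), Trim2 (-2.72, adjusted p = 2.01e-09) and Sox15 (-2.07, adjusted p = 2.75e-07). The median of the 16 was 0.14. In d3 G- cells, where 1.07% of all genes were called higher and 1.25% lower, 3 of the 16 were higher and 1 lower. Sox3 was higher by 2.57 (adjusted p = 4.36e-10), Sall2 by 1.78 (adjusted p = 4.51e-06) and Sall3 by 1.64 (adjusted p = 0.00062). The Sall3 call was kept under 9 of 12 alternatives. The Trim2 difference was -1.98 (adjusted p = 8.11e-06).

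Treatment with EPZ6438 addressed whether loss of PRC2 activity alters the cells that form, and none of the 7 regulators passed both thresholds under either regimen. In ADE_EPZ against Control 2.65% of all genes were called in either direction, and in ES_EPZ against Control 0.404%. The median difference of the 7 genes was -0.06 and -0.07, beside -0.01 over all genes in each comparison. The 3 Control, 3 ADE_EPZ and 3 ES_EPZ arrays lay on 3 slides, each slide with 1 array of every regimen.

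Lin28b came nearest to a call. It read 11.42, 11.8 and 11.62 in Control, 10.24, 10.68 and 10.09 in ADE_EPZ, and 10.89, 11.27 and 10.43 in ES_EPZ. All treated arrays were below all Control arrays. The ADE_EPZ difference was -1.28, or 2.42-fold (SE 0.21, 95% interval -1.69 to -0.86, adjusted p = 6.14e-05), which passed the p threshold, as did 5.23% of all genes in the same direction, and not the fold threshold. It was -1.71, -1.38 and -0.74 within the 3 slides, and the dimmer probe gave -0.92 (adjusted p = 0.00637). The ES_EPZ difference was -0.75 (adjusted p = 0.0481), with -1.38, -0.73 and -0.15 within slides. The 2 regimens differed by -0.52 (95% interval -0.94 to -0.11, adjusted p = 0.35), where 0.121% of genes were called.

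Lin28a showed a like order at a smaller size. It read 13.3, 13.6 and 13.34 in Control and 12.59, 12.99 and 12.2 in ADE_EPZ, a difference of -0.82 without overlap (SE 0.23, adjusted p = 0.0182, within slides -1.4, -0.76 and -0.31). In ES_EPZ it read 13.17, 13.76 and 12.5, a difference of -0.27 that overlapped Control (adjusted p = 0.754). On each slide the decrease of Lin28b under ADE_EPZ was larger than that of Lin28a.

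The 3 factors lost during differentiation were not called either. Pou5f1 read 7.78, 7.4 and 7.16 in Control, 8.08, 8.77 and 7.73 in ADE_EPZ, and 9.01, 7.27 and 9.16 in ES_EPZ. The groups overlapped, and the differences were 0.75 (95% interval -0.54 to 2.03, adjusted p = 0.622) and 1.03 (-0.26 to 2.32, adjusted p = 0.56). Utf1 read 10.05, 10.07 and 9.54 in Control, 10.12, 11.39 and 10.21 in ADE_EPZ, and 11.1, 10.27 and 11.18 in ES_EPZ. Every treated Utf1 array was above every Control array, which is a description only. The differences were 0.69 (95% interval -0.21 to 1.58, adjusted p = 0.435) and 0.97 (0.07 to 1.86, adjusted p = 0.336). Sox2 was 8.45 ± 0.01 in Control, 8.14 ± 0.3 in ADE_EPZ and 7.64 ± 0.35 in ES_EPZ, with differences of -0.31 (adjusted p = 0.584) and -0.81 (95% interval -1.32 to -0.31, adjusted p = 0.0841), again without overlap. Sall4 differed from Control by 0.24 and 0.08, and Trim71 by -0.06 and -0.07, with groups that overlapped.

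**Figure D4:**
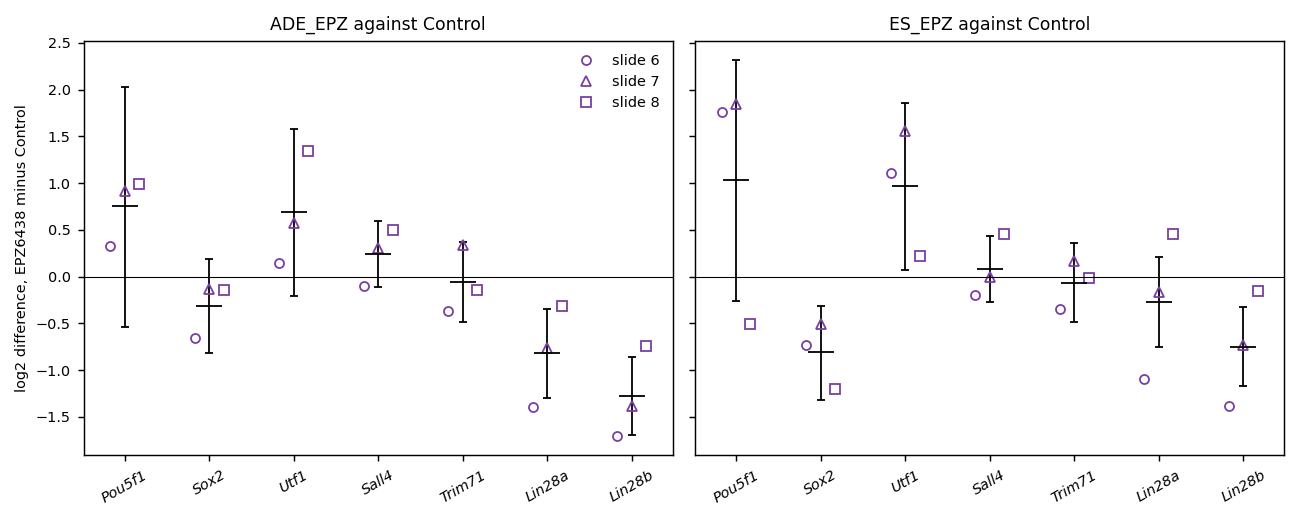
Log2 difference of ADE_EPZ (left) and ES_EPZ (right) cultures from Control at day 6 for the 7 genes. Bars give the limma difference and its 95% interval, and open symbols the difference within each of the 3 slides. Under ADE_EPZ the Lin28b interval runs from -1.69 to -0.86 and all 3 slides lie below 0, while Pou5f1 and Utf1 lie above 0 on all 3 slides with intervals that cross it.

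Pathway genes around the regulators did pass the test under EPZ6438. Of the Lin28 and let-7 list, Tut4 was lower, with differences of -2.26 in ADE_EPZ (adjusted p = 1.14e-05) and -1.83 in ES_EPZ (adjusted p = 0.00178), the latter lost under 3 of 12 alternatives and with 3 of 6 arrays left out in turn. Its arrays lay between 10.59 and 11.62 in Control, 8.24 and 9.29 in ADE_EPZ, and 8.32 and 9.76 in ES_EPZ. In ADE_EPZ the growth regulator gene Myc was also lower (-1.51, adjusted p = 3e-06), kept under 8 of 12 alternatives and with 3 of 6 arrays left out in turn, and the cell cycle inhibitor gene Cdkn1a was higher (1.91, adjusted p = 0.00017). That made 3 of 23 genes in ADE_EPZ and 1 in ES_EPZ, where 2.65% and 0.404% of all genes were called, and the list median was -0.16 in ADE_EPZ.

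Of the 16 targets and partners, Lefty2 (2.23, adjusted p = 0.00886) and Zfp42 (1.51, adjusted p = 0.00231) were higher in ADE_EPZ, with a list median of 0.91 beside -0.01 over all genes. The Lefty2 call was lost with any 1 of the 6 arrays left out and the Zfp42 call with 4 of them, so that the count was between 0 and 1 in those fits. Over the alternatives the count was between 1 and 3. None was called in ES_EPZ, where the median was 0.52. There the count called higher ran from 0 to 2 over the alternatives and also with 1 array left out. Nanog stayed at 6.36 ± 0.27 in Control and 6.44 ± 0.3 in ADE_EPZ. Among relatives, Trim2 was higher (2.08, adjusted p = 7.24e-06) and Sall3 was not above background in ADE_EPZ, at least 4.47-fold below Control (adjusted p = 7.73e-06).

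Marker lists were also counted under EPZ6438, where 2.65% of all genes were called in ADE_EPZ and 0.404% in ES_EPZ. In ES_EPZ none of the naive or endoderm markers was called, and the naive count was between 0 and 1 over the alternatives. The mean of the 6 definitive endoderm markers was 11.57 in Control (arrays 11.37 to 11.83), 12.74 in ADE_EPZ (12.52 to 12.89) and 12.31 in ES_EPZ (12.09 to 12.51), and 1 of the 6, Hhex, was called higher in ADE_EPZ (2.23, adjusted p = 0.000217). The mean of the 10 naive markers was 8.27 in Control (7.99 to 8.49), 8.84 in ADE_EPZ (8.73 to 8.97) and 8.44 in ES_EPZ (8.03 to 8.75), with Tfcp2l1 (2.11) and Zfp42 called higher in ADE_EPZ and Tbx3 (-3.34) lower. In each of the 3 groups every gene of both lists was above background on at least 1 array. The primitive streak gene Mixl1 was lower in ADE_EPZ (-3.34, adjusted p = 1.24e-07) and in ES_EPZ (-1.72, adjusted p = 0.00565), 1 of 5 streak markers in each, and the latter call was lost under 3 of 12 alternatives and in 4 of 6 fits that left out 1 array. The naive means of ES_EPZ and Control overlapped, and those of ADE_EPZ did not overlap Control. The part of these values in the Lin28b, Lin28a, Utf1 and Sox2 differences was not tested.

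The genes whose levels ran closest to each regulator over the 11 untreated group means were taken from 15320 genes above background. After Pou5f1-rs4, those nearest Pou5f1 were L1td1 (Pearson r = 0.996), an RNA-binding protein gene of pluripotent cells, and Mgl2 (0.994). Nearest Sox2 were Col18a1 (0.988), Dyrk3 (0.986) and Eif2d (0.985), and nearest Utf1 were Dtx1 (0.988), Mkrn1 (0.987) and Pla2g10 (0.984). Sall4 was nearest Nbas (0.974), Lin28a nearest Mocs3 (0.969), Lin28b nearest Ivd (0.986) and Trim71 nearest Eed and Unc45b (0.951 each). Between the regulators themselves r was 0.93 for Pou5f1 and Sox2, 0.84 for Sox2 and Utf1, and 0.75 for Pou5f1 and Utf1. Trim71 had 0.89 with Sox2 and 0.85 with Pou5f1, and Lin28b had 0.79 with Pou5f1. The value was -0.9 for Sox2 and Sall4, and 0.52 for Lin28a and Lin28b. The points share cultures and arrays, so these values describe the curves only.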

How the data were processed

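Per the labels and the study's methods, RNA from 42 samples was labelled with Cy3 and hybridised to one-colour Agilent arrays. The authors deposited log2 intensities after normexp background correction (offset 10) and quantile normalisation over all arrays in limma and also the scanner's intensity files. The log2 table was used for all values reported, and the deposited intensities gave the background flags and recomputed alternatives, which correlated with the table at 0.99998 or above.

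Accessions were named through RefSeq tables (21865 of 23171 matched). The members, lists and tests were chosen with earlier results of these data known. Limma 3.58.1 (R 4.3.3) was fitted to all 42 arrays with 1 mean per group, and p-values were adjusted by Benjamini-Hochberg over 55681 probes. Members were named in every comparison, and of each list at most 4 called genes with the largest differences; the rest, such as Nanog and the Lefty genes, were picked once their values had been seen. P-values rest on the spread between the 3 experiments of a group, pooled for each probe over all 14 groups and moderated by limma. Shared slides were treated as a block in alternatives. On simulated data 98 to 99 of 100 probes changed by 2.5 log2 units were called. Of 100 changed by 1, which lies under the fold threshold, 0 to 4 were called and 50 to 55 passed the p threshold. The simulated noise was independent between arrays and held no slide or replicate structure. The number of arrays limits the precision.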

Additional observations from a re-analysis of the deposited data

How the results depend on the processing

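The 29 member differences that were called were recomputed under 12 alternatives, which gave 348 values, of which 336 kept the call, 12 lost it and 0 changed sign. With 1 array left out, 174 of 183 kept it. Counts of called members changed as follows, apart from the replicate block below. In d3 G- against ESC the count of 1 became 0 with a 75th percentile scaling, the compared groups only, no background correction or an offset of 50, and ran from 0 to 1 with 1 array left out. In d5 Glow and Ghigh against d5 G- the count of 3 became 1 with the compared groups only. It became 2 with a 75th percentile scaling, with the untreated series alone and in 6 of 9 fits with 1 array left out. Smaller changes were 3 to 2 in d5 Glow against ESC with the compared groups only, and 2 to 3 in d4 G+ against ESC with the slide as a fixed or random block or without d4 G+ replicate 2. In d5 Ghigh against d5 Glow the count of 1 became 0 with a 75th percentile scaling, the compared groups only or an offset of 50. In d6 G+H- against d5 Ghigh the count of 0 became 1 with a 75th percentile scaling and ran from 0 to 1 with 1 array left out (1 without d5 Ghigh replicate 3 or d6 G+H- replicate 3). The causes were not tested.

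The replicate numbers were not taken to pair samples: deviations of same-numbered arrays correlated at a median of 0.21 in the untreated series, with a lowest value of -0.12, and 0.19 in the EPZ6438 series, lowest -0.06. Arrays of different number had medians of -0.14 and -0.08, so some structure by number was present. With the replicate number as a block, the count was 3 in place of 2 in d4 G+ against ESC (Pou5f1, adjusted p = 0.000843) and in d4 G+ against d4 G- (Pou5f1, adjusted p = 0.00334), and 1 in place of 0 in d5 Ghigh against d4 G+ (Pou5f1 -1.95, adjusted p = 0.00704), and it changed no other count. Weak signal limits Sox2 at d6, where 1 array of each population was not above background. Differences near 1 log2 unit mostly fall short of the fold threshold by construction, whatever the number of arrays.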

Other observations

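Other marker lists, not tied to the 7 regulators, were counted in the same comparisons, in which 2.78% of all genes were called higher and 3.58% lower in d3 G+, and 5.58% and 5.16% in d6 G+H+. Of 5 formative or primed epiblast markers, 1, Fgf5, was called higher than ESC in d3 G-, where 1.07% of all genes were. In d3 G+ 2 were higher (Fgf5 and Otx2) and 1, Pou3f1, lower. In d6 G+H+ 3 were higher (Fgf5, Otx2 and Dnmt3b) and 1, Pou3f1, lower. Fgf5, a growth factor gene of the epiblast, differed by 3.59 in d3 G- (adjusted p = 6.73e-06), 4.12 in d3 G+ (adjusted p = 1.44e-07) and 6.65 in d6 G+H+ (adjusted p = 1.95e-12). Otx2, a forebrain and anterior endoderm factor gene, differed by 4.97 in d6 G+H+ (adjusted p = 1.55e-08). The d3 G+ calls of Otx2 and Pou3f1 were each kept in 2 of 6 fits that left out 1 array, and that of Otx2 under 5 of 12 alternatives. Of 6 primordial germ cell markers, Prdm14 and Dppa3 were called lower in d3 G+. In d6 G+H+ 3 were lower (Prdm14, Dppa3 and Dnd1) and 1 higher (Prdm1). Of 5 trophoblast markers, 3 were called higher in d3 G+ (Cdx2, Hand1 and Gata3, where the count was between 1 and 2 with 1 array left out). In d6 G+H+ 3 were higher (Gata3, Krt7 and Elf5) and 1, Cdx2, lower. Of 6 neural markers, Zfp521 was called higher and Pax6 lower in d3 G+. At d6 Sox3 and Zfp521 were higher and Pax6 lower in G+H+ cells. These d6 calls of Cdx2, Zfp521 and Pax6 were each kept under 9 of 12 alternatives, and with 1 array left out in 4, 5 and 5 of 6 fits. In d3 G+ the Zfp521 call was kept under 10 and the Pax6 call under 9 of 12.

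Under EPZ6438 2.65% of all genes were called in ADE_EPZ and 0.404% in ES_EPZ. None of the formative, germ cell or trophoblast markers was called in either regimen. The count of trophoblast markers called higher was between 0 and 2 over the alternatives in ADE_EPZ and between 0 and 1 in ES_EPZ. The medians of the 3 lists were 0.59, 0.31 and 1.09 in ADE_EPZ and 0.67, 0.24 and 0.09 in ES_EPZ. Of the neural markers, 1, Zfp521, was called lower in ADE_EPZ.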
